A study of Mus musculus with 4 samples.

Results

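Growth factors that direct the growth of lymphatic and blood vessels, and the neuropilins that bind them, were measured in single cells of the hindlimb vasculature of mice. The genes were taken by symbol from the matrices and numbered 9 of the 30406 genes that the 4 matrices share: *Vegfa*, *Vegfb*, *Vegfc*, *Vegfd* and *Pgf* of the vascular endothelial growth factor (VEGF) family, *Angpt1* and *Angptl1* of the angiopoietin family, and the neuropilins *Nrp1* and *Nrp2*. The comparisons ask which of the sorted cells held the transcripts of each factor and whether the cells named for lymphatic and for venous muscle differed in them. They also ask how the levels stood in arthritic mice.

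Popliteal lymphatic vessels (PLVs) and the adjacent saphenous vein were dissected together, dissociated and sorted, and each 10x Genomics 3′ library pooled 3 mice on a C57BL6 background (C57BL/6J in the study's methods). The tdT libraries, replicates 1 and 2, held cells sorted for tdTomato fluorescence from *Cspg4*-Cre;Ai9-tdTomato mice over 8 months old, in which the *Cspg4* promoter drives Cre in pericytes, smooth muscle cells and some other *Cspg4*-expressing cells. The WT library came from wild-type mice and the TNF-Tg library from mice of the same age, 9 months by the labels and 8 to 9 months by the study's methods, that carry a tumor necrosis factor transgene and have chronic inflammatory-erosive arthritis; both were sorted on high forward and side scatter without a fluorescent reporter. The tdT libraries thus differ from the others in genotype and sort, and tdT replicate 1 was also sorted with another nozzle and sequenced on another instrument. By the study's methods the WT and TNF-Tg mice were all male, whereas *Cspg4*-Cre mice of both sexes were crossed for the tdT libraries. WT and TNF-Tg are 1 library each, so genotype and library cannot be told apart.

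Secreted VEGF ligands act on receptor tyrosine kinases of endothelial cells: VEGF-A on the receptors encoded by *Flt1* and *Kdr*, VEGF-B and placental growth factor on the *Flt1* product, and VEGF-C and VEGF-D on the *Flt4* product of lymphatic endothelium. Angiopoietin 1 activates the Tie2 receptor, encoded by *Tek*, and steadies vessels. Neuropilins are co-receptors without a kinase of their own that bind both VEGF ligands and class 3 semaphorins, and macrophages and stromal cells carry them as well as endothelium.

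The libraries held 454 to 5488 cells and 2357031 to 68773605 unique molecular identifiers (UMIs, 1 per captured transcript), with a median of 4932.5 to 12660 UMIs per cell, and no pair of libraries shared more than 5 cell barcodes. In tdT replicate 1, 516 of 1504 cells had over 10% mitochondrial UMIs. Cells were clustered without the genes described here and classes were named from marker lists. The stromal-like class joined LMC-like and VSMC-like cells. LMC-like cells (2646 in all) were named for lymphatic muscle cells, with *Myoc*, *Pi16* and *Fndc1*. VSMC-like cells (1888 in all) were named for vascular smooth muscle cells, and 1350 lay in a cluster with *Cxcl14*, *Mgp* and *Gdf10*. The other 538 lay in a cluster named on *Cxcl14*, *Apod* and *Rbp4* only. That cluster gave 201 of 377 VSMC-like cells in tdT replicate 1, 56 of 152 in tdT replicate 2, 167 of 768 in WT and 114 of 591 in TNF-Tg. The 9 contractile smooth muscle and pericyte markers, among them *Acta2*, *Myh11* and *Tagln*, summed to only 39.8 to 71.1 CPM (UMIs of a gene per 1000000 UMIs of the sum) in LMC-like and 49.8 to 68.6 CPM in VSMC-like cells, so the names stand for the marker lists and not for contractile cells. *Col1a1*, *Col1a2*, *Col3a1*, *Dcn* and *Sparc* summed to 22024 to 44205 CPM in LMC-like and 27367 to 47634 CPM in VSMC-like cells. The study could not fully exclude that the cells it named for lymphatic and vascular muscle were myofibroblasts from nearby tissue. *Acta2*, *Myh11* and *Tagln* were instead among the top 50 genes by fold of a cluster that was left unnamed and led by immunoglobulin and keratin genes, of 621 cells with a median of 888 UMIs and 29.8% mitochondrial UMIs. The myeloid-like class joined macrophage-, monocyte-, neutrophil- and dendritic cell-like cells. In tdT replicates 1 and 2 it held 152 and 140 cells, which form the myeloid-like side of those libraries in the tests. The sort there was for tdTomato fluorescence, and the study describes events other than smooth muscle cells in that sort as contamination. Each value below is the CPM of a gene in the summed UMIs of a class in a library, and levels were compared between cells and not between genes. Differences between classes were tested with the edgeR quasi-likelihood test with the library as a block, and a gene was called at an adjusted p (Benjamini-Hochberg over all genes tested) under 0.01.

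Promoters of 3 ligands are shown, since over 93% of their transcripts came from stromal-like cells in each library and their promoters differed in make-up. Each is the 250 bases before the RefSeq start (GRCm38.p6), written 5′ to 3′ on the strand of the gene, with matches to a GC box (GGGCGG) or a TATA box (TATAAA) on either strand in capitals. The *Vegfa* window lies at chr17:46032378-46032627 on the minus strand, the *Vegfd* window at chrX:164373272-164373521 and the *Angptl1* window at chr1:156838773-156839022, both on the plus strand; in GENCODE vM21 the *Vegfd* gene already starts within its window and *Angptl1* before its window.
*Vegfa*: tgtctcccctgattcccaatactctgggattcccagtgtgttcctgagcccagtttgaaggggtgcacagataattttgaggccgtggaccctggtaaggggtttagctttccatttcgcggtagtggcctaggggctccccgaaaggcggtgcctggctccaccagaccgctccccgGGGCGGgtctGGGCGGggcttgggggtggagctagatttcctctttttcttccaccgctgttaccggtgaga
*Vegfd*: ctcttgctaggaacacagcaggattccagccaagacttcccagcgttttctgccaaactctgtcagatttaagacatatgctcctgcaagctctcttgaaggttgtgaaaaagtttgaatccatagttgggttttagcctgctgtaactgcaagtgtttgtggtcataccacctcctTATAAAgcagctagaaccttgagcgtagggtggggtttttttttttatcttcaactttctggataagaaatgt
*Angptl1*: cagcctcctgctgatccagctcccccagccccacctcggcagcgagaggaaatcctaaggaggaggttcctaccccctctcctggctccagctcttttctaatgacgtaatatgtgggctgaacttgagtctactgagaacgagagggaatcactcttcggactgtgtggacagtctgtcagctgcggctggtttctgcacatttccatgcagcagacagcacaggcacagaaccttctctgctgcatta
The *Vegfa* window held 2 GC boxes and was 59.2% G or C, the *Vegfd* window held 1 TATA box and was 42.4% G or C, and the *Angptl1* window held neither and was 54.8% G or C. Of all 32851 RefSeq windows of the same length, 32.7% held a GC box and 12.4% a TATA box, and the median G and C content was 52.4%. A search of the same kind for the hypoxia response core (ACGTG) and the AP-1 site (TGANTCA), which 16.6% and 6.75% of all windows held, found no match in the windows of the 8 genes with a RefSeq entry. Matches describe letters only, and no match in the windows shown overlapped another.

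Levels of the ligands other than *Vegfb* lay far higher in stromal-like than in myeloid-like cells, and *Nrp2* was higher in myeloid-like cells. Of the 9 genes, 6 were called higher in stromal-like cells (*Vegfa*, *Vegfc*, *Vegfd*, *Pgf*, *Angpt1* and *Angptl1*), *Nrp2* was called lower, and *Vegfb* and *Nrp1* did not pass the test. Of all 13620 genes tested, 45.4% were called, 25.1% as higher and 20.3% as lower in stromal-like cells, and the median log2 difference was 3.53 over the 9 genes and 0.10 over all genes. The plot of levels by class and library shows *Vegfb* and the neuropilins on both sides of the dotted line and the other ligands mostly left of it.

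**Figure D1:**
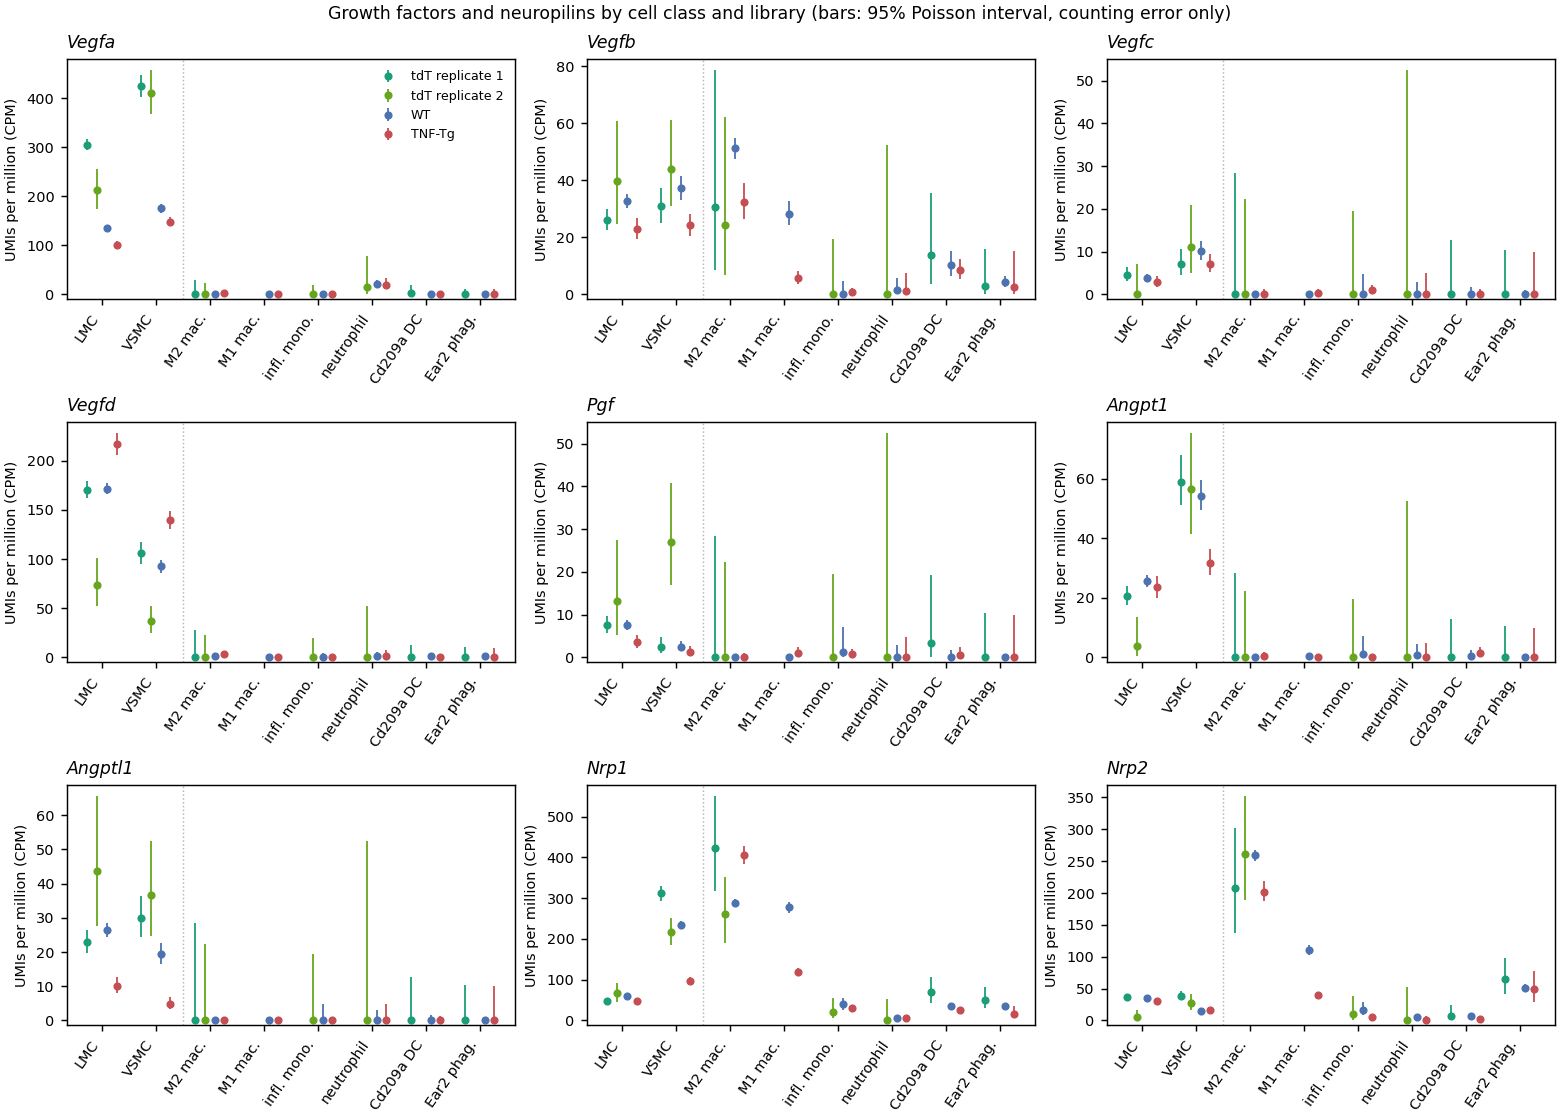
Levels of the 9 genes in CPM (linear y axis with its own scale in each panel) by cell class on the x axis, 1 point per library and bars for the 95% Poisson interval, which covers counting error only; classes with under 20 cells in a library are not drawn. *Vegfa*, *Vegfd*, *Angpt1* and *Angptl1* lie near 0 in the macrophage-like classes right of the dotted line, with *Vegfa* in neutrophil-like cells at 20.5 CPM in WT, whereas *Nrp1* and *Nrp2* are high in M2-macrophage-like cells.

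*Vegfa* (ENSMUSG00000023951, chr17:46016993-46032369 in GRCm38), the main ligand of blood vessel growth, stood at 340.7 and 333 CPM in stromal-like cells of tdT replicates 1 and 2, against 147 CPM in WT cells and 124 CPM in those of TNF-Tg. Myeloid-like cells of the same libraries gave 31.8, 1.43, 1.83 and 1.82 CPM. Every stromal-like value was above every myeloid-like value, and both tdT libraries were above WT and TNF-Tg. The fitted log2 difference was 5.57 ± 0.53 (SE, n = 4 libraries, adjusted p = 2.34e-05), which corresponds to 47.5-fold. Of the 39 myeloid-like *Vegfa* UMIs in tdT replicate 1, 20 came from 19 neutrophil-like cells and 16 from 14 inflammatory monocyte-like cells.

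The share of cells with a *Vegfa* UMI was compared after each cell was thinned to 3000 UMIs, since depth differs between the classes. It was 52.9% of 737 stromal-like cells in tdT replicate 1, 53.2% of 188 in tdT replicate 2, 31.1% of 2045 in WT and 27.2% of 1029 in TNF-Tg. Among myeloid-like cells it was 10.4%, 0%, 0.534% and 0.704%, where 0 of 88 cells in tdT replicate 2 allows a share of up to 4.11% (exact Clopper-Pearson bound). Unthinned, the shares ran from 55.2 to 71.9% in stromal-like and from 0.714 to 10.5% in myeloid-like cells, whose median depths were 5468 to 14906 and 3994.5 to 12451 UMIs.

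*Vegfd* (ENSMUSG00000031380, chrX:164373378-164402650), a ligand of the lymphatic receptor, had 152, 51.4, 151 and 180.0 CPM in stromal-like cells of tdT replicates 1 and 2, WT and TNF-Tg. Myeloid-like cells held 1.63, 0, 0.946 and 0.935 CPM, from 51 UMIs in the 4 libraries together. The groups did not overlap, and tdT replicate 2 was the lowest of the stromal-like sums. Between the lineages the fit gave a log2 difference of 7.42 ± 0.24 (SE, n = 4, adjusted p = 1.26e-07). After thinning, 13.8 to 38.9% of stromal-like and 0 to 0.205% of myeloid-like cells had a *Vegfd* UMI.

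*Vegfc* (ENSMUSG00000031520, chr8:54077606-54187096), the other lymphatic ligand, was scarce in both lineages. Its level was 5.32, 6.70, 5.56 and 4.81 CPM in stromal-like cells of tdT replicates 1 and 2, WT and TNF-Tg, and 0, 0, 0.0946 and 1.53 CPM in myeloid-like cells. Stromal-like values varied little and all lay above the sums of the myeloid-like class, of which TNF-Tg was the highest. The 0 in tdT replicate 2 came from 140 myeloid-like cells with 699368 UMIs in all, so it allows a level above 0. A log2 difference of 3.48 ± 0.75 (SE, n = 4, adjusted p = 0.00373) was fitted. Without tdT replicate 2 the call was lost (3.40, adjusted p = 0.0161), and the difference was 2.30 without WT and 5.85 without TNF-Tg, both called. Not all myeloid-like classes were low. Patrolling monocyte-like cells of TNF-Tg, taken by themselves, lay above every stromal-like value, as given under the other observations.

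*Vegfb* (ENSMUSG00000024962, chr19:6982473-6987651), a ligand of the *Flt1* product, was shared between the lineages. It had 27.5, 42.4, 33.9 and 23.6 CPM in stromal-like cells and 9.78, 10.0, 30.5 and 8.86 CPM in myeloid-like cells of tdT replicates 1 and 2, WT and TNF-Tg. The stromal-like value was higher in 4 of 4 libraries, but WT myeloid-like cells lay within the stromal-like range. The log2 difference of 1.14 ± 0.30 (SE, n = 4) missed the threshold (adjusted p = 0.0105) and passed it without WT (1.63, adjusted p = 0.000293), by DESeq2 (adjusted p = 0.00334) and under 4 other alternatives. Among WT myeloid-like classes, *Vegfb* was at 51.2 and 28.2 CPM in M2- and M1-macrophage-like cells. It was at 0 to 10.1 CPM in inflammatory monocyte-, neutrophil-, Cd209a dendritic cell- and Ear2 phagocyte-like cells.

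*Pgf* (ENSMUSG00000004791, chr12:85166635-85177790), placental growth factor, was at 6.01, 21.6, 6.23 and 2.48 CPM in stromal-like cells of tdT replicates 1 and 2, WT and TNF-Tg. Myeloid-like cells held 0.815, 0, 0.0946 and 0.935 CPM, so these values did not overlap, with tdT replicate 2 far above the other stromal-like sums. The 0 in tdT replicate 2 came from 140 myeloid-like cells with 699368 UMIs in all. At 3 counts it allows a level above the TNF-Tg stromal-like value. On the log2 scale the difference was 3.53 ± 0.78 (SE, n = 4, adjusted p = 0.00413), and the call was lost without tdT replicate 2 (3.30, adjusted p = 0.0217). It was 2.32 without WT and 5.55 without TNF-Tg, both called.

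*Angpt1* (ENSMUSG00000022309, chr15:42424723-42676977), the Tie2 agonist, was the most even over the libraries among the 6 genes called higher, at 31.8, 35.7, 33.2 and 27.4 CPM in stromal-like cells of tdT replicates 1 and 2, WT and TNF-Tg. That holds for the joined class only, since its level ran from 3.79 to 25.6 CPM in LMC-like and from 31.7 to 59.0 CPM in VSMC-like cells. Myeloid-like cells held 0, 0, 0.221 and 0.345 CPM, far below every stromal-like value, and the log2 difference was 6.89 ± 0.34 (SE, n = 4, adjusted p = 3.6e-07). *Angptl1* (ENSMUSG00000033544, chr1:156838562-156861078), a secreted protein related to the angiopoietins, had 24.9, 39.5, 24.6 and 7.58 CPM in stromal-like cells, with TNF-Tg the lowest. Its myeloid-like values were 0.815, 0, 0.126 and 0 CPM, from 5 UMIs in all, and the log2 difference was 7.50 ± 0.48 (SE, n = 4, adjusted p = 1.61e-06). With so few myeloid-like UMIs, the sizes fitted for *Vegfc*, *Pgf*, *Vegfd*, *Angpt1* and *Angptl1* depend on the offset that the fit adds to low counts. Cells removed for markers of the other lineage also move fitted sizes. With those cells kept, the log2 differences of *Vegfd*, *Angpt1* and *Angptl1* were 5.31, 5.15 and 5.68, and that of *Vegfa* 4.47.

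*Nrp1* (ENSMUSG00000025810, chr8:128358604-128503363), a co-receptor of VEGF-A and of class 3 semaphorins, had 125, 158, 105 and 71.9 CPM in stromal-like cells of tdT replicates 1 and 2, WT and TNF-Tg. Myeloid-like cells held 100.2, 91.5, 197 and 108.0 CPM, so stromal-like cells were higher in both tdT libraries and lower in WT and TNF-Tg. No difference was detected between the lineages (log2 −0.09 ± 0.28, SE, n = 4, adjusted p = 0.812), and without WT the value was 0.18 (adjusted p = 0.576). *Nrp2* (ENSMUSG00000025969, chr1:62703285-62818695), a co-receptor of VEGF-C and of class 3 semaphorins, had 37.7, 18.6, 29.5 and 24.0 CPM in stromal-like cells and 48.1, 72.9, 149 and 46.9 CPM in myeloid-like cells. Every myeloid-like value was above every stromal-like value, and the log2 difference was −1.33 ± 0.32 (SE, n = 4, adjusted p = 0.00638). Its call was lost without WT (−0.93, adjusted p = 0.0167) and without tdT replicate 2 (−1.21, adjusted p = 0.0375). The myeloid-like classes differed. In WT, *Nrp2* was at 259, 110.3 and 51.4 CPM in M2-macrophage-, M1-macrophage- and Ear2 phagocyte-like cells. It was at 16.6, 6.60 and 4.74 CPM in inflammatory monocyte-, Cd209a dendritic cell- and neutrophil-like cells, below stromal-like cells. *Nrp1* was at 289 and 278 CPM in M2- and M1-macrophage-like cells and at 7.11 to 39.5 CPM in those other classes.

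The source of the transcripts depends on level and cell number together. Cell numbers also depend on the sort, for tdTomato or for high scatter. Endothelial-like cells numbered 34, 7, 2 and 6 in tdT replicates 1 and 2, WT and TNF-Tg. The shares thus describe the sorted cells and not the vessel wall. Stromal-like cells held 93.9 to 99.8% of all *Vegfa* UMIs of a library, 94.9 to 98.7% of *Vegfd*, 96.3 to 100% of *Angptl1* and 88.7 to 98.0% of *Angpt1* UMIs. For *Pgf* and *Vegfc* the share was over 71% in the tdT and WT libraries but 63.0% and 62.3% in TNF-Tg, where myeloid-like cells held 35.2% of 54 *Pgf* UMIs and 29.2% of 106 *Vegfc* UMIs. *Vegfb* UMIs were split, with 48.5% in stromal-like and 43.9% in myeloid-like cells of WT and 56.1% and 31.2% in TNF-Tg, whereas in the tdT libraries the stromal-like share was 91.0 and 85.1%. Neuropilin UMIs came mostly from myeloid-like cells in the scatter-sorted libraries: 62.5% in WT and 66.2% in TNF-Tg for *Nrp1*, and 79.4% and 70.2% for *Nrp2*. In the tdT libraries the myeloid-like share was 7.45 and 22.5% for *Nrp1* and 8.74 and 63.7% for *Nrp2*, beside 152 and 140 myeloid-like cells.

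**Figure D2:**
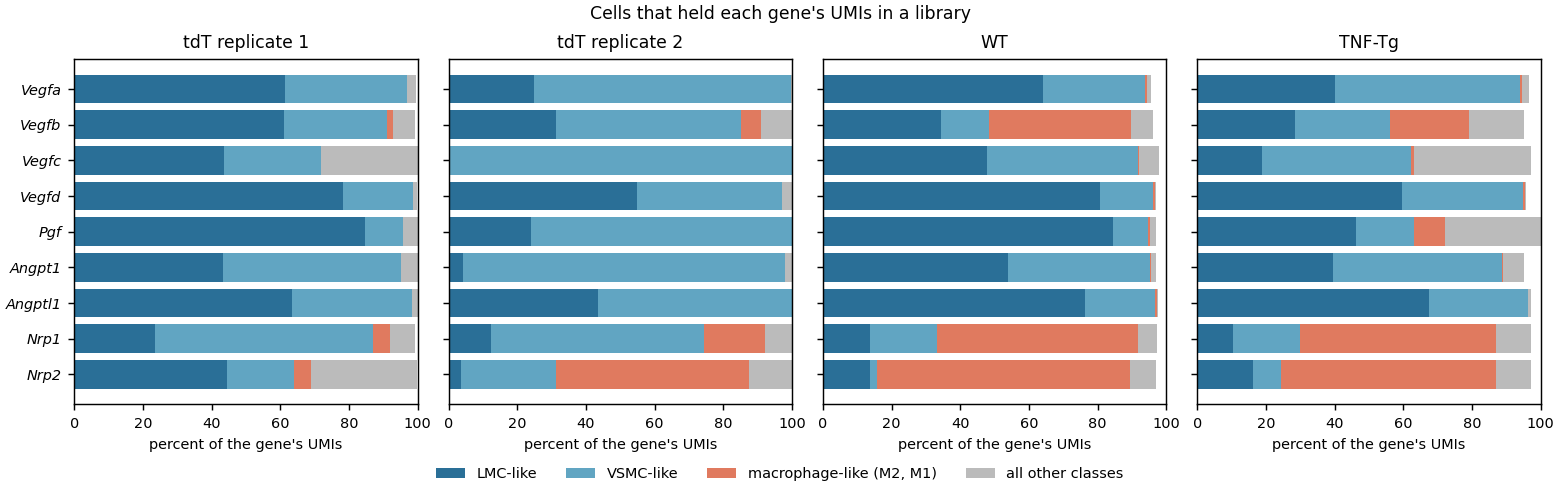
Percent of the UMIs of each gene (x axis, 0 to 100%) that LMC-like, VSMC-like, macrophage-like and all other classes held in each of the 4 libraries; bars end short of 100% where cells removed for markers of the other lineage held the rest. In WT, stromal-like cells held 93.9% of *Vegfa* and 15.6% of *Nrp2* UMIs.

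Within the stromal-like cells, the lymphatic ligand *Vegfd* was higher in LMC-like cells, and *Vegfa*, *Vegfc*, *Angpt1* and *Nrp1* were higher in VSMC-like cells. Of the 9 genes, 5 were called between the classes, against 11.4% of all 12025 genes tested (5.60% higher and 5.80% lower in LMC-like cells), and *Vegfb*, *Pgf*, *Angptl1* and *Nrp2* did not pass. The median log2 difference was −0.20 over the 9 genes and 0.00 over all genes. The library block carries much of this test: without it, *Nrp1* was the only one of the 9 called.

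*Nrp1* differed most, at 47.9, 66.4, 58.9 and 48.2 CPM in LMC-like cells against 312, 217, 234 and 97.8 CPM in VSMC-like cells of tdT replicates 1 and 2, WT and TNF-Tg. No LMC-like value reached the lowest VSMC-like one, that of TNF-Tg. Its log2 difference was −1.91 ± 0.20 (SE, n = 4, adjusted p = 3.82e-05) and was called with each library left out. When cells were clustered more finely, *Nrp1* was highest in VSMC-like cells led by *F3*, *Fmo2* and *Gpc3*, with 431.5, 366, 584 and 252 CPM in the 4 libraries. The other 3 VSMC-like clusters gave 55.3 to 318 CPM and the 2 LMC-like clusters 41.5 to 96.1 CPM.

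*Vegfd* had 171, 74.0, 172 and 217 CPM in LMC-like cells of tdT replicates 1 and 2, WT and TNF-Tg and 106, 36.8, 92.5 and 139.7 CPM in VSMC-like cells. The LMC-like value was higher in 4 of 4 libraries, although the ranges overlapped because tdT replicate 2 was low in both classes. The fitted log2 difference was 0.74 ± 0.13 (SE, n = 4, adjusted p = 0.00174), and the call was lost without WT (0.66, adjusted p = 0.0177). *Vegfc* went the other way, at 4.57, 0, 3.94 and 2.80 CPM in LMC-like and 7.12, 11.0, 10.0 and 7.02 CPM in VSMC-like cells, with no overlap of these values. The 0 in tdT replicate 2 came from 93 LMC-like cells with 527146 UMIs in all, so it allows a level above 0. The *Vegfc* log2 difference was −1.25 ± 0.28 (SE, n = 4, adjusted p = 0.00709). It was not called without WT (−1.22, adjusted p = 0.0593) or without TNF-Tg (−1.20, adjusted p = 0.0452).

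*Vegfa* was lower in LMC-like than in VSMC-like cells of each library, at 305 against 425 CPM in tdT replicate 1, 212 against 411 CPM in tdT replicate 2, 136 against 176 CPM for WT, and 101 against 148 CPM for TNF-Tg. The spread between libraries was larger than that between classes, so the ranges overlapped. For *Vegfa* the log2 difference was −0.60 ± 0.13 (SE, n = 4, adjusted p = 0.00763) and was not called without tdT replicate 2 (−0.53, adjusted p = 0.0211) or without TNF-Tg (−0.57, adjusted p = 0.0282). *Angpt1* stood at 20.5, 3.79, 25.6 and 23.5 CPM in LMC-like cells and at 59.0, 56.4, 54.3 and 31.7 CPM in VSMC-like cells, with no overlap. Its log2 difference was −1.17 ± 0.21 (SE, n = 4, adjusted p = 0.00175) and was called with each library left out.

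Of the genes that did not pass, *Pgf* was at a higher level in LMC-like cells in tdT replicate 1, WT and TNF-Tg (7.53, 7.57 and 3.49 against 2.37, 2.51 and 1.37 CPM) and lower in tdT replicate 2 (13.3 against 27.0 CPM). Its log2 difference was 1.04 ± 0.36 (SE, n = 4, adjusted p = 0.0674), and 1.48 without tdT replicate 2 (adjusted p = 0.00462). *Nrp2* gave 37.2, 5.69, 34.8 and 30.9 CPM in LMC-like and 39.1, 27.0, 14.7 and 16.5 CPM in VSMC-like cells (log2 0.53 ± 0.26, SE, n = 4, adjusted p = 0.199). The VSMC-like cells led by *Col4a1* and *Col15a1*, named on 3 markers only, held much of the VSMC-like *Nrp2*, and without them the log2 difference was 1.70 (adjusted p = 0.00113; chosen after the clusters were seen). *Angptl1* (0.27 ± 0.18, adjusted p = 0.361) and *Vegfb* (−0.20 ± 0.11, adjusted p = 0.272) had smaller differences that did not pass.

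**Figure D3:**
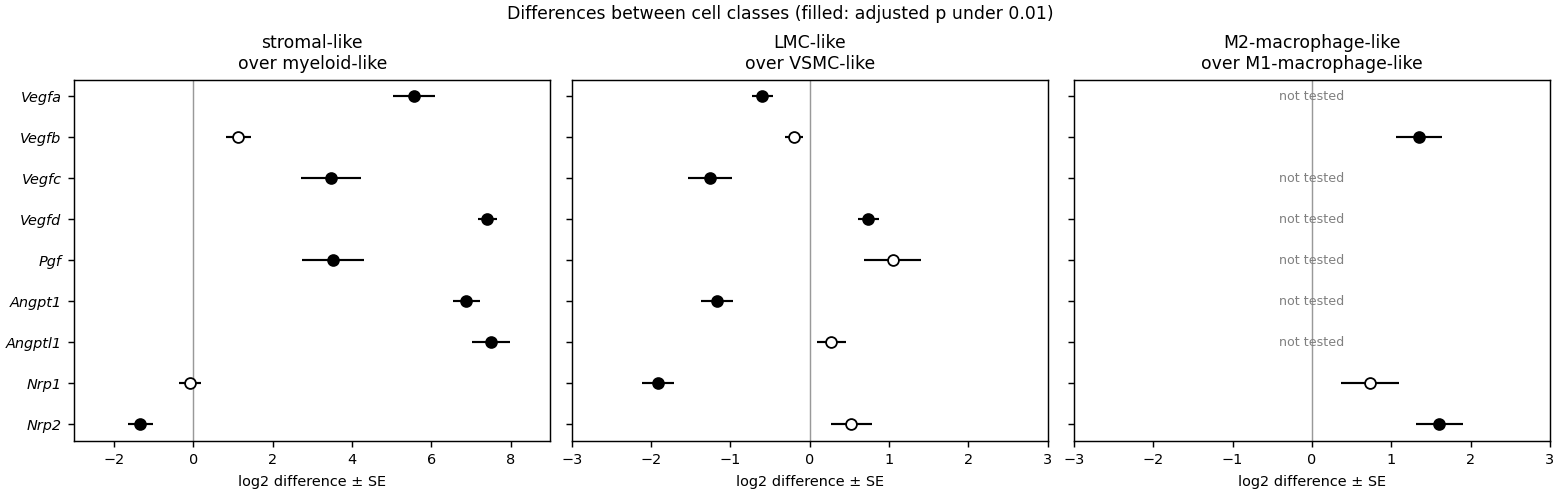
Log2 difference between classes (x axis, with bars for ± 1 SE from the edgeR fit) for each of the 9 genes, filled where the adjusted p was under 0.01. The ligands other than *Vegfb* lie to the right in the first panel, at 3.48 to 7.50, while *Nrp1* sits at −0.09, and in the second panel *Nrp1* lies furthest left at −1.91.

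Among macrophages, *Nrp1* and *Nrp2* were present in both main classes, and *Nrp2* and *Vegfb* were higher in M2-macrophage-like cells, named for *Cd209f*, *Lyve1* and *Cd163*, than in M1-macrophage-like cells, named for *Ccl12*, *Aif1* and *Fcgr1*. The summed M1 list was no higher in the M1-macrophage-like class, at 13373 CPM in M2- and 13364 CPM in M1-macrophage-like cells of WT and at 9998 and 5097 CPM in TNF-Tg. WT and TNF-Tg were the only libraries with at least 20 cells of both classes. The test thus rests on 2 libraries, 1 residual degree of freedom and the spread that edgeR shares over all genes. It called 4.82% of 10558 genes (2.50% higher and 2.32% lower in M2-macrophage-like cells) and 2 of the 3 genes tested here, and the other 6 were too low to be tested. The median log2 difference was 1.35 over these 3 genes and −0.02 over all genes.

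*Nrp2* was at 259 CPM in M2-macrophage-like and 110.3 CPM in M1-macrophage-like cells of WT, and at 202 and 39.4 CPM in TNF-Tg, with a log2 difference of 1.61 ± 0.30 (SE, n = 2, adjusted p = 0.00293). *Vegfb* was at 51.2 and 28.2 CPM in WT and at 32.3 and 5.72 CPM in TNF-Tg (log2 1.35 ± 0.29, SE, n = 2, adjusted p = 0.00755). *Nrp1* was at 289 and 278 CPM in WT and at 405 and 119 CPM in TNF-Tg, so the classes were close in WT and apart in TNF-Tg (log2 0.73 ± 0.36, SE, n = 2, adjusted p = 0.263). Neither of the calls held under all alternatives: *Vegfb* was called under 2 and *Nrp2* under 6 of 10. In the tdT libraries, 45 M2-macrophage-like cells each gave 422 and 261 CPM of *Nrp1* and 207 and 261 CPM of *Nrp2*, within or near the range of the other libraries.

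In TNF-Tg over WT, *Vegfd* had a higher level in both stromal classes, while *Vegfa*, *Vegfb*, *Pgf*, *Angptl1* and *Nrp1* had lower ones in LMC-like cells. These are ratios of 1 library to 1 library, given with a 95% interval that covers counting error only and with no test. Ratios are given where both sums together held at least 100 UMIs, and a gene counts as apart at 2-fold. In LMC-like cells 2 of the 9 genes were at least 2-fold lower in TNF-Tg and none higher, beside 6.39% of all 9988 genes apart, 3.57% lower and 2.81% higher. In VSMC-like cells 2 of 8 were at least 2-fold lower and none higher, beside 11.0% of 8643 genes apart, 8.08% lower and 2.97% higher. With both classes joined, 2 of 9 were lower and none higher, beside 8.79% of all genes apart, 5.24% lower and 3.56% higher. The median log2 ratio of all genes was −0.03 in LMC-like and −0.16 in VSMC-like cells, and that of the members measured was −0.43 and −0.57.

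*Vegfd* reached 217 CPM in TNF-Tg against 172 CPM in WT in LMC-like cells (log2 ratio 0.34, interval 0.25 to 0.42) and 139.7 against 92.5 CPM in VSMC-like cells (0.59, interval 0.46 to 0.73). Over 9 alternatives the VSMC-like log2 ratio ran from 0.59 to 0.99, and 6 of them lay within the counting interval. The TNF-Tg level was higher in 5 of the 6 finer stromal clusters, for example in the VSMC-like cells led by *F3* and *Fmo2*, at 206 against 57.0 CPM. In those led by *Col5a3* and *Col4a1* it was 156 in WT and 144 CPM in TNF-Tg, with overlapping Poisson intervals.

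*Angptl1* was lower in TNF-Tg in both stromal classes, at 10.2 against 26.4 CPM in LMC-like cells (log2 ratio −1.37, interval −1.74 to −1.02) and at 4.73 against 19.5 CPM in VSMC-like cells (−2.04, interval −2.65 to −1.48). The 2 finer LMC-like clusters are set side by side with no test. Cells led by *Postn* and *Mrgprg* gave 1.53 CPM in TNF-Tg (7 UMIs in 296 cells) and 21.0 CPM in WT (254 UMIs in 699 cells), whereas those led by *Dkk2* and *Edn1* gave 25.7 and 32.4 CPM (66 and 352 UMIs), with overlapping intervals. When each LMC-like cell weighed the same, the log2 ratio was −0.95 and under 2-fold.

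*Vegfa* was lower in TNF-Tg by less than 2-fold, at 136 and 101 CPM in LMC-like cells (log2 ratio −0.43, interval −0.55 to −0.31) and at 176 and 148 CPM in VSMC-like cells (−0.24, interval −0.36 to −0.13, which came to −0.09 with a TMM factor between the sums). In the finer VSMC-like clusters *Vegfa* was higher in TNF-Tg in the cells led by *F3* and *Fmo2*, at 295 CPM (interval 245 to 353) against 205 CPM (interval 177 to 236), and not in the other 3. *Pgf* in LMC-like cells had 7.57 CPM from 175 UMIs in WT and 3.49 CPM from 25 UMIs in TNF-Tg (−1.12, interval −1.78 to −0.51), and its ratio was under 2-fold with marker gates on single cells (−0.88). *Vegfb* was lower in both classes, by −0.52 (interval −0.77 to −0.27) and −0.62 (interval −0.90 to −0.34) on the log2 scale. For *Vegfc* the intervals included 0 in both classes: −1.27 to 0.22 in LMC-like and −1.07 to 0.02 in VSMC-like cells.

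*Angpt1* was close between the libraries in LMC-like cells, at 25.6 and 23.5 CPM (log2 ratio −0.13, interval −0.38 to 0.12), and lower in TNF-Tg in VSMC-like cells, at 54.3 and 31.7 CPM (−0.77, interval −1.02 to −0.53). *Nrp1* showed the same order, with 58.9 and 48.2 CPM in LMC-like cells (−0.29, interval −0.46 to −0.12) and 234 and 97.8 CPM in VSMC-like cells (−1.26, interval −1.39 to −1.13). In the 4 finer VSMC-like clusters *Nrp1* was lower in TNF-Tg each time, at 76.5 against 182, 55.3 against 166, 158 against 233 and 252 against 584 CPM. *Nrp2* had intervals that included 0 in both classes, −0.40 to 0.04 in LMC-like and −0.22 to 0.55 in VSMC-like cells, and its VSMC-like ratio turned from 0.16 to −0.30 with marker gates. Beside these ratios, the summed LMC marker list was lower in TNF-Tg LMC-like cells (12578 against 18086 CPM in WT), as was the VSMC list in VSMC-like cells (9329 against 16798 CPM), and their part in the ratios was not tested.

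**Figure D4:**
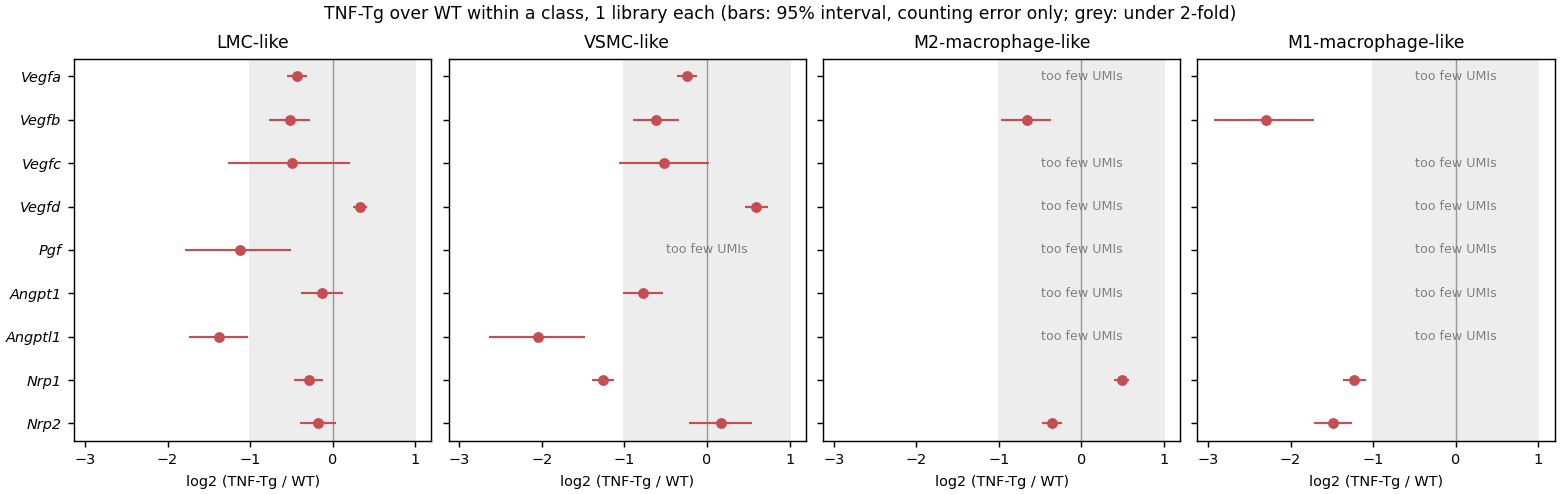
Log2 ratio of TNF-Tg over WT (x axis, 1 library each) for the 9 genes in 4 cell classes, with bars for the 95% conditional binomial interval, which covers counting error only, and a grey band for ratios under 2-fold. *Vegfd* lies right of 0 in LMC-like (0.34) and VSMC-like (0.59) cells, and *Nrp1* lies right of 0 in M2-macrophage-like cells (0.49) and left of 0 in the other 3 classes.

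In macrophages, 3 genes had enough UMIs. In M2-macrophage-like cells none was 2-fold apart, beside 7.31% of all 8758 genes, 3.69% higher and 3.62% lower in TNF-Tg: *Nrp1* was higher in TNF-Tg, at 405 against 289 CPM (log2 ratio 0.49, interval 0.40 to 0.58), and *Nrp2* (202 against 259 CPM, −0.36, interval −0.48 to −0.24) and *Vegfb* (32.3 against 51.2 CPM, −0.66, interval −0.97 to −0.37) were lower. In M1-macrophage-like cells all 3 were at least 2-fold lower, beside 17.5% of 7497 genes apart, 11.7% lower and 5.82% higher, with a median log2 ratio of −0.12: *Vegfb* by a log2 ratio of −2.30 (interval −2.93 to −1.72), *Nrp1* of −1.23 (−1.37 to −1.09) and *Nrp2* of −1.48 (−1.72 to −1.25). In the same M1-macrophage-like cells the summed M1 list was at 5097 CPM in TNF-Tg against 13364 CPM in WT and the M2 list at 2588 against 12926 CPM, and in M2-macrophage-like cells the M2 list was at 25024 against 40547 CPM; their part in the ratios was not tested. With classes set by marker gates on single cells in place of clusters, the 3 ratios were −1.20, −0.37 and −0.68.

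The same 3 genes in all myeloid-like cells together gave 30.5 and 8.86 CPM for *Vegfb*, 197 and 108 CPM for *Nrp1* and 149 and 46.9 CPM for *Nrp2* in WT and TNF-Tg, with 2 of 3 at least 2-fold lower beside 15.8% of all genes apart, 10.7% lower and 5.03% higher. Those sums also differ in make-up, with 1119 of 2573 cells M2-macrophage-like in WT and 268 of 1851 in TNF-Tg, so a change within cells and a change in cell classes cannot be told apart in them.

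Among the smaller myeloid classes few ratios could be given. *Nrp1* in inflammatory monocyte-like cells had a log2 ratio of −0.36 (interval −0.92 to 0.24) and was not 2-fold apart, beside 6.80% of all genes there, 4.23% higher and 2.57% lower in TNF-Tg. In Cd209a dendritic cell-like cells it was −0.50 (interval −0.97 to −0.03), beside 10.9% of genes 2-fold apart, 5.07% higher and 5.85% lower. In Ear2 phagocyte-like cells, 1 of 2 members was 2-fold lower, *Nrp1* at 16.2 against 36.0 CPM (−1.15, interval −2.61 to −0.00) from 6 TNF-Tg UMIs, beside 10.1% of genes apart, 8.88% lower and 1.19% higher. No member reached the minimum in neutrophil-like cells, where 11.1% of genes were apart, 4.73% higher and 6.32% lower.

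Other genes of these pathways, 32 receptors, semaphorins, ligands, activators and inhibitors listed by symbol, lay mostly on the stromal side. Of 28 tested between stromal-like and myeloid-like cells, 20 were higher in stromal-like cells, 4 lower and 4 not called, beside 25.1% higher and 20.3% lower of all genes, with a median log2 difference of 4.77. The largest were *Svep1* (8.29) and *Ccbe1* (8.17), both extracellular proteins needed for lymphatic growth, the semaphorins *Sema3d* (8.27), *Sema3e* (8.01) and *Sema3b* (7.61), and *Tek* (7.92), the angiopoietin receptor. Those lower in stromal-like cells were *Flt1* (−4.54), the thrombospondin *Thbs1* (−4.04) and the semaphorin receptors *Plxna4* (−3.65) and *Plxnd1* (−3.05). In myeloid-like cells of WT and TNF-Tg, *Flt1* was at only 1.23 and 2.31 CPM and *Plxna4* at 2.74 and 0.0492 CPM. Of the 87 WT myeloid-like *Plxna4* UMIs, 73 came from Ear2 phagocyte-like cells. Sizes with few UMIs in the lower lineage, such as *Ccbe1* (2 and 0 myeloid-like UMIs in WT and TNF-Tg), depend on the offset as well. *Flt4* and *Tie1* were at 0 in stromal-like cells of each library, which at 3 counts allows up to 0.0953 to 2.23 CPM.

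**Figure D5:**
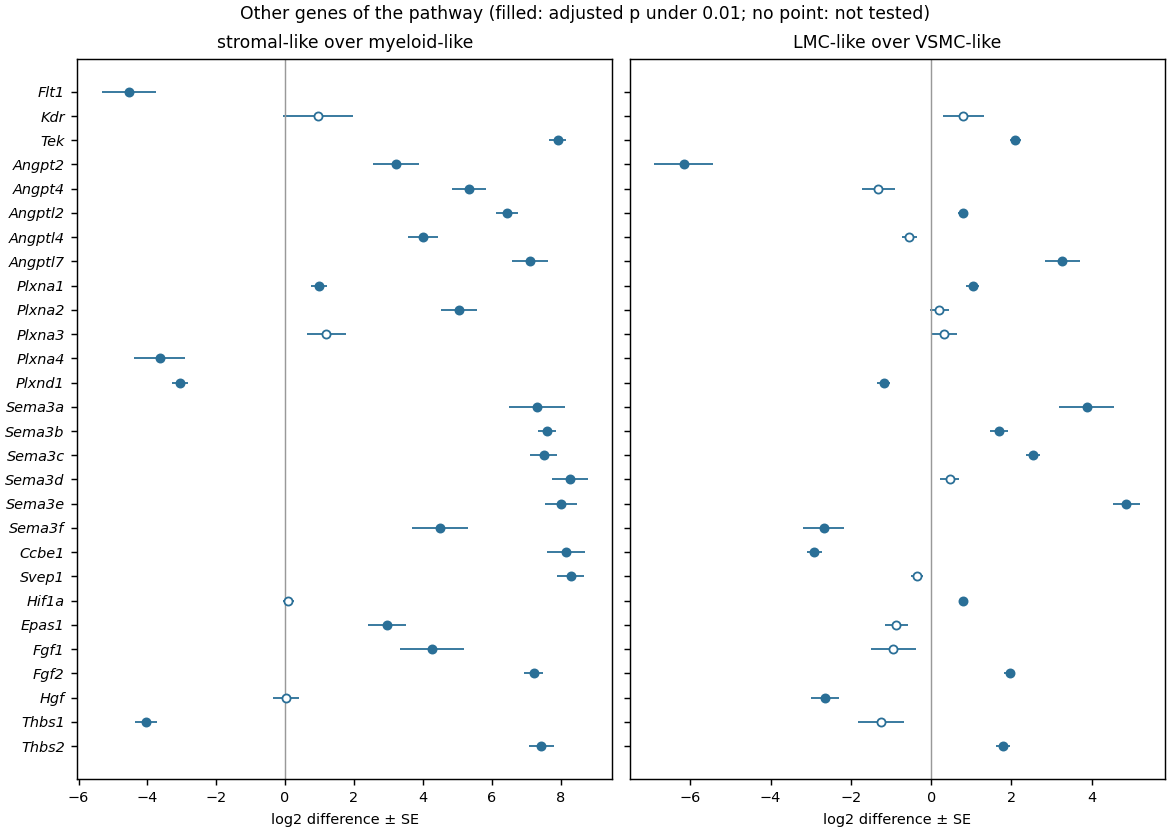
Log2 difference (x axis, with bars for ± 1 SE from the edgeR fit) for the other genes of the pathways between stromal-like and myeloid-like cells and between LMC-like and VSMC-like cells, filled where the adjusted p was under 0.01 and without a point where a gene was too low to be tested. *Sema3a*, *Sema3b*, *Sema3c*, *Sema3d* and *Sema3e* lie right of 0 in the first panel, at 7.32 to 8.27, and *Sema3e* (4.87) and *Angpt2* (−6.17) lie furthest apart in the second. Both had few or no UMIs in the lower class of WT and TNF-Tg.

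Between LMC-like and VSMC-like cells, 11 of 26 were higher in LMC-like cells, 5 lower and 10 not called, beside 5.60% higher and 5.80% lower of all genes. *Sema3e* (log2 4.87), *Sema3a* (3.87), *Angptl7* (3.27), *Sema3c* (2.53), *Tek* (2.10) and the fibroblast growth factor *Fgf2* (1.96) were the furthest on the LMC-like side. *Angpt2* (−6.17), which can oppose angiopoietin 1, *Ccbe1* (−2.91), *Sema3f* (−2.67), the hepatocyte growth factor *Hgf* (−2.64) and *Plxnd1* (−1.18) were lower in LMC-like cells. The sizes for *Angpt2*, *Sema3a* and *Sema3e* depend on the offset added to low counts. *Angpt2* had 0 LMC-like UMIs in WT and TNF-Tg, beside 56 and 16 VSMC-like UMIs. In VSMC-like cells of WT and TNF-Tg, *Sema3a* had 0 UMIs in both and *Sema3e* had 18 and 0. *Tek* was present in LMC-like cells at 156, 137, 140.3 and 75.6 CPM and in VSMC-like cells at 46.0, 23.3, 31.9 and 15.3 CPM of tdT replicates 1 and 2, WT and TNF-Tg, so the LMC-like and VSMC-like ranges did not overlap. Between M2- and M1-macrophage-like cells, 1 of 8 was called, *Thbs1* (−7.11), beside 4.82% of all genes.

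Among ratios of TNF-Tg over WT, 2 of the 19 pathway genes with enough UMIs in LMC-like cells were at least 2-fold higher, beside 2.81% of all genes, *Epas1* (log2 ratio 1.89, interval 1.37 to 2.40), a hypoxia-inducible factor subunit, and *Angptl4* (1.01, interval 0.90 to 1.12). The 3 at least 2-fold lower, beside 3.57% of all genes, were *Angptl7* (−2.01), *Sema3d* (−1.19) and *Plxnd1* (−1.13). In VSMC-like cells none of 16 was higher and 5 were lower, beside 2.97% and 8.08% of all genes: *Angpt4* (−3.04), *Sema3c* (−1.37), *Thbs2* (−1.29), *Sema3b* (−1.13) and *Tek* (−1.06). *Hif1a* was higher in both macrophage classes, by 1.17 (interval 1.03 to 1.32) in M2- and 1.32 (interval 1.17 to 1.46) in M1-macrophage-like cells, and lower in inflammatory monocyte-like cells (−0.88, interval −1.11 to −0.64). Of the 4 measured in the M1-macrophage-like class, *Thbs1* was also higher in TNF-Tg (2.68) and *Plxnd1* lower (−1.73).

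Genes with the pattern most like each member were found over 34 sums of 16 classes in 4 libraries, among 8684 genes, by the Pearson correlation of log2(CPM + 10). These are descriptions with no test, since the sums share libraries, classes and depth. *Vegfd* was nearest to *Lgi2* (0.99), *Prelp* (0.98) and *Lrrc17* (0.98), *Angptl1* to *Cacna2d1* (0.98), *Ptprd* (0.97) and *Pi15* (0.97), and *Vegfa* to *Evc2* (0.97), *Evc* (0.97) and *Reck* (0.96). *Angpt1* was nearest to the interleukin receptor *Il1r1* (0.91), *Nrp2* to *Rab11fip5* (0.93) and *Nrp1* to *Selenop* (0.90). The values for *Pgf* (*Sema3d*, 0.86), *Vegfc* (*Cpe*, 0.86) and *Vegfb* (*Lmna*, 0.85) were lower.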

How the data were processed

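The values are UMI counts per gene and cell in the matrices the authors deposited for 4 libraries, made with Cell Ranger (3.1.0 in the submitters' processing notes, which also give Seurat 4.0.3 and the mm10 build; per the file headers, 3.1.0 for tdT replicate 1 and 6.0.1 for the others). Depths stand in the report. All else was computed here from these counts.

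Members, pathway genes and marker lists were chosen with earlier results of these data known. Named genes are the 9 members, and of the pathway list those furthest from 0 past the threshold, up to 6 in each direction; the most similar genes are the 3 of highest Pearson correlation over sums of at least 30 cells and 100000 UMIs, among genes with at least 1000 UMIs, of which some are printed. Cells were integrated with Seurat 5.3.0 (R 4.3.3; 2000 variable features less the members and pathway genes, 30 dimensions, resolution 0.5, seed 42). A cluster took a name when at least 3 fixed markers were among its top 50 genes by fold. It was left unnamed all the same when its median depth was far below that of its libraries and no marker was among its leading genes. This rule set aside the cluster of 621 cells with *Acta2*, *Myh11* and *Tagln*, which had the 3 markers. Cells with over 0.25 of the other lineage's median marker level were left out. Doublets predicted by Scrublet (scanpy 1.11.5), 0 to 137 a library, were kept in the main analysis. The tdTomato transcript was listed in 3 matrices, with 118 UMIs in tdT replicate 2 and 0 in WT and TNF-Tg.

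UMIs were summed per class and library, for libraries with at least 20 cells of both classes, and tested with edgeR 4.0.16 (TMM, filterByExpr, library as a block). Each SE was derived as the absolute log2 difference over the square root of the quasi-likelihood F. It is therefore approximate, above all for genes with few UMIs in a class. Both classes of a comparison come from the same pooled mice. With the library as a block, p-values rest on how the class difference varies between libraries. That spread is not taken from each gene alone, since edgeR moderates it with the spread of all genes tested. The p-values can thus be far smaller than the few residual degrees of freedom of a single gene would give. The tests used 4 libraries of 3 groups, and 2 for the macrophage classes. Single-library ratios have 95% conditional binomial intervals and levels 95% Poisson intervals; both cover counting error only, and a count of 0 has a floor of 3 counts. Thinning to 3000 UMIs left out 57 to 289 stromal-like and 52 to 147 myeloid-like cells per library. The scripts were tested on simulated data.

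Alternatives were DESeq2 1.42.0, its size factors in edgeR, library totals, no filter, no library block, each library left out, no lineage gate, doublets or low-quality cells left out, resolution 1.0, marker gates on single cells, the mean of the cells' own CPM, a TMM factor, clusters from WT and TNF-Tg alone, a minimum of 20 UMIs, thinning to 1500 UMIs or none, and, added after the data were seen, the VSMC-like clusters without that led by *Col4a1*. Positions are from GENCODE vM21 (GRCm38) and promoter sequences from RefSeq, with an entry for 8 of the 9 genes.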

Additional observations from a re-analysis of the deposited data

Results flagged for a closer look

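Among ratios from at least 100 UMIs in single classes, *Nrp1* was the one gene of the 9 whose TNF-Tg over WT ratio had opposite signs in different classes with counting intervals that left out 0. The log2 ratio was 0.49 in M2-macrophage-like cells, and −0.29 in LMC-like, −1.26 in VSMC-like, −1.23 in M1-macrophage-like, −0.50 in Cd209a dendritic cell-like and −1.15 in Ear2 phagocyte-like cells. With 1 library per genotype, the difference between classes was not tested. The Ear2 phagocyte-like value rests on 6 UMIs in 24 TNF-Tg cells and became 0.24 when clusters were built from WT and TNF-Tg alone.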

How the results depend on the processing

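The number of members called between stromal-like and myeloid-like cells was 7, 4 to 7 with 1 library left out and 7 or 8 under the others, *Vegfb* being the eighth. Of all genes, 6182 of 13620 were called, 4994 to 5802 with 1 library left out and 4541 to 6690 under the others. Without tdT replicate 2, where 4 members were called, it was 5196 of 13666 genes. *Vegfa*, *Vegfd*, *Angpt1* and *Angptl1* were called under all 15 alternatives. *Nrp1* was called under none, with −0.36 to 0.18 when 1 library was left out, above 0 without WT. Between LMC-like and VSMC-like cells 1372 genes were called, 192 without the library block and 907 to 1203 with 1 library left out, and of the members 5, 1 and 3 to 5; *Angptl1* turned to −0.050 under marker gates. Between M2- and M1-macrophage-like cells 509 genes were called, but 263 by DESeq2, 10 with library totals, 974 without the filter, 170 at resolution 1.0 and none without the library block (edgeR, 877 at an unadjusted p under 0.05). The number of members called there was 2, but 1 under DESeq2, its size factors, the quality filter and marker gates, and 0 under library totals, no library block and resolution 1.0. These counts can include members that were not tested in the main analysis. *Vegfb* itself was called under 2 and *Nrp2* under 6 of 10 alternatives. No leave-one-out test was run there, since 1 library is left without residual degrees of freedom. Over 8 classes, 8 member ratios of TNF-Tg over WT were at least 2-fold apart, beside 6.39 to 17.5% of all genes in a class. They were 2 of 9 measured in LMC-like, 2 of 8 in VSMC-like, 3 of 3 in M1-macrophage-like and 1 of 2 in Ear2 phagocyte-like cells. None was apart of 3 in M2-macrophage-like cells, or of 1 each in inflammatory monocyte- and Cd209a dendritic cell-like cells. Under marker gates 4 were apart, and the share of all genes was not computed there. Of the single ratios 2-fold apart, only *Nrp1* in Ear2 phagocyte-like cells turned (0.24). Of those under 2-fold, *Nrp2* in VSMC-like (−0.30), *Nrp1* in inflammatory monocyte-like (0.16) and *Angpt1* in LMC-like cells (0.023) turned under marker gates. *Nrp2* in Ear2 phagocyte-like cells turned (0.31) with clusters from WT and TNF-Tg alone, as for *Nrp1*. For 4 members, more stromal-like than myeloid-like cells held a UMI in all 4 libraries with intervals apart. The count was 6 without thinning and 1 when thinned to 1500 UMIs. It was taken for the members only and not for all genes, so it cannot show whether the members stand apart from other genes. In the pathway list, signs turned only where no call stood: *Hif1a* without tdT replicate 1 (−0.0031, to 0.090 with another left out), *Hgf* (−0.0058, −0.028, −0.28 and −0.094) under size factors, library totals and without tdT replicate 2 or TNF-Tg, *Plxna2* without WT (−0.034, to 0.36 with another left out), and *Sema3d* (−0.24 and −0.17) under marker gates and without the *Col4a1* cluster. The causes were not tested. Depth limits *Vegfc* and *Pgf*, with 9 to 196 UMIs in a stromal-like sum.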

Other observations

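Several small classes held members of these families that the comparisons above do not reach, from few cells and with no test. Endothelial-like cells of tdT replicate 1 (34 cells) had 385 CPM of *Nrp2* (interval 330.2 to 447), 95.8 CPM of *Nrp1* and 46.8 CPM of *Vegfc* from 21 UMIs, beside 475 CPM of *Flt1*, 432 CPM of *Kdr* and 303 CPM of *Tek*. The other libraries held 2 to 7 endothelial-like cells, too few for a comparison.

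*Vegfc* was also found in patrolling monocyte-like cells, at 16.7 CPM in TNF-Tg (interval 10.8 to 24.7) from 25 UMIs in 22 of 190 cells; WT held 6 such cells with 1 UMI. *Angpt1* in mast cell-like cells was at 283 CPM from 13 UMIs in 3 of 19 TNF-Tg cells and at 32.1 CPM from 4 UMIs in 98 WT cells. *Nrp2* in migratory dendritic cell-like cells was at 213 CPM from 39 UMIs in 14 TNF-Tg cells. *Vegfa* in neutrophil-like cells was at 475 CPM (interval 290.3 to 734) from 20 UMIs in 19 cells of tdT replicate 1, against 14.2, 20.5 and 19.9 CPM in tdT replicate 2, WT and TNF-Tg.

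*Thbs1*, an inhibitor of vessel growth singled out after its values were seen, was lower in TNF-Tg than in WT in neutrophil-like cells (log2 ratio −3.01, interval −3.70 to −2.38) and in inflammatory monocyte-like cells (−2.75, interval −3.02 to −2.48), and higher in M1-macrophage-like cells (2.68, interval 2.43 to 2.94) and Ear2 phagocyte-like cells (3.73, interval 3.18 to 4.27), with 1 library per genotype and no test.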
